A study of Saccharomyces cerevisiae with 16 samples.

Results

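The comparison described here is the deletion of CDK8 in a budding yeast strain that carries a shortened Fcp1. It sets the strain whose label adds cdk8-del against the strain without it, with 2 arrays a side, so 4 of the 16 arrays of the series belong to it. Both strains carry the FLAG-tagged FCP1 truncation named 1:594, and the first also lacks CDK8, whose gene is listed as SSN3. They are called 1:594 cdk8-del and 1:594 below. Every array compared 1 strain with a common pool of reference RNA of unstated genotype, and array a carried the strain in Cy3 and array b in Cy5. Cultures were harvested during mid-log growth, and the labels do not say that arrays a and b came from separate cultures. The p-values thus measure the spread between arrays a and b of the strains in the series, which may be technical. Except in fits with a replicate block, that spread includes the difference between the dyes. The values below are levels as log2 strain over reference, or differences between 2 such levels, and each is an average over a culture, in which a change in every cell and a change in some of the cells cannot be told apart.

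Fcp1 is a phosphatase that removes phosphate from the C-terminal domain (CTD) of the largest subunit of RNA polymerase II, which lets the enzyme be used again after a round of transcription. Cdk8 is a cyclin-dependent kinase. Together with its cyclin (SSN8) and the subunits encoded by SRB8 and SSN2 it forms the kinase module of Mediator, the complex that links gene-specific activators and repressors to RNA polymerase II, and it phosphorylates both the CTD and several transcription factors. In budding yeast the kinase module is best known for holding down genes that are off in rapidly growing, glucose-fed cells, among them genes of the general stress response driven by Msn2 and Msn4 and genes of respiration.

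The altered genes followed the labels for CDK8. SSN3 stood at -1.97 and -1.95 on the a and b arrays of 1:594 cdk8-del and at -0.31 and 0.03 on those of 1:594. It was not above background on either array of the double mutant and was above background on both arrays of 1:594, which puts it at least 2.57-fold lower (limma adjusted p = 0.000121). That bound uses the strain's own channel after the arrays were scaled to each other, and sets the mean of the brighter strain against the dimmest signal that still counts as above background. The other kinase module genes did not pass the test, with differences of -0.01 ± 0.21 (SE, n = 2 arrays a side, as for every difference below) for SSN8, -0.11 ± 0.06 for SRB8 and -0.09 ± 0.06 for SSN2.

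FCP1 itself was low in both strains, at -3.18 and -3.69 in the double mutant and at -2.67 and -2.87 in 1:594. The difference of -0.66 ± 0.20 was not called (limma adjusted p = 0.0706, or 5.6e-05 with the replicate block, where its fold of 1.58 stays under the threshold). The place of the FCP1 probe relative to the truncation is not known here, and the probe does not check the allele. LYS2, needed to make lysine, was high in both strains, at 3.15 and 2.99 against 2.76 and 2.69, and its difference of 0.35 ± 0.10 was not called either (limma adjusted p = 0.0649, or 0.00841 with the replicate block, at 1.27-fold). Its mean was 3.40 in 1:609 and 2.98 in 1:609 cdk8-del, but 0.12 in 1:666, -0.10 in 1:666 cdk8-del and 0.07 in 1:713. In the same order the FCP1 means were -3.49, -3.19, -0.27, -0.27 and -0.31. The 1:666 and 1:713 strains used below thus also differ from the 1:594 strains in these transcripts.

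MET17, which encodes the enzyme that joins sulfide to O-acetylhomoserine and is a common auxotrophic marker of laboratory strains, separated the strains more than any other probe. It stood at -0.60 and -0.27 in 1:594 cdk8-del and at -4.51 and -4.57 in 1:594, a rise of 4.10 ± 0.15 (17.2-fold, limma adjusted p = 2.23e-07). Of the 39 genes on a list of methionine and sulfate assimilation genes, MET17 was the only one called, and the median difference of that list was -0.06. The 2 strains thus differed in the transcript of a marker gene as well as in CDK8. In the truncation 1:609, MET17 did not pass the test between the strains with and without CDK8 (0.28 ± 0.15), and both levels were low. The part that the MET17 difference plays in the other values was not tested.

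Of 6388 probes, limma called 137 (2.14%), a call being an adjusted p below 0.01 together with more than a 1.7-fold change. Of these, 107 (1.68%) were higher in 1:594 cdk8-del and 30 (0.47%) were lower. Gene symbols were available for 99 of the rises and 22 of the falls. On all 137 called probes both arrays of the double mutant lay on 1 side of both arrays of 1:594. Over all probes, 20.8% had both double mutant arrays above both 1:594 arrays and 20.4% had both below, and the median difference was -0.0023.

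The rises were more numerous than the falls. All called probes had passed the same 1.7-fold threshold, which sets a lower limit to the size of both medians. The median called rise was 1.07 on the log2 scale, or 2.11-fold, and the median called fall was -1.11. There were 63 rises over 2-fold and 10 over 4-fold, against 17 falls over 2-fold. Of the 107 probes called higher, 68 stood below the reference in 1:594, 95 stood above it in the double mutant, and 56 crossed from one side to the other. Of the 30 called lower, 20 stood above the reference in 1:594, 27 stood below it in the double mutant, and 17 crossed. The difference between the b arrays was larger than that between the a arrays for 93 of the 107 rises and larger in size for 17 of the 30 falls.

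The call depends on how the spread is estimated. With the 4 arrays alone, and no term for the dye, limma called 0 probes, and 864 had an unadjusted p under 0.05. With a term for the replicate letter added to those 4 arrays, which was chosen after seeing the data, it called 192. Centring each array on its median in place of the intensity-dependent lowess gave 41 calls. With the replicate letter as a block over all 16 arrays, 141 probes were higher (2.21%) and 39 lower (0.611%), and the 137 were all among them. Without array a of 1:594 the count was 80, and without array b of 1:594 cdk8-del it was 87.

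**Figure D1:**
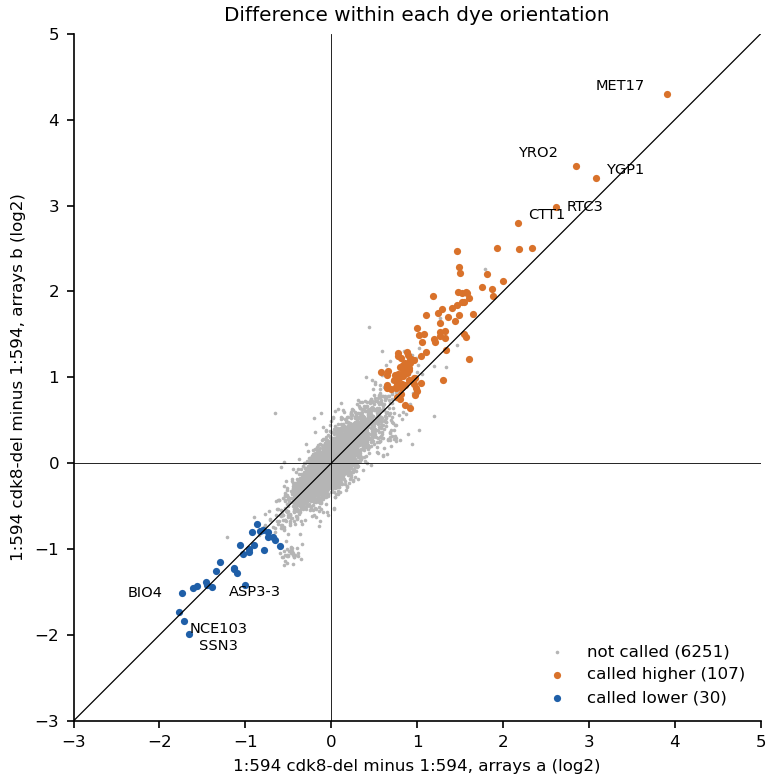
Each point is 1 probe, placed by the log2 difference between 1:594 cdk8-del and 1:594 on the a arrays (x axis) and on the b arrays (y axis), and the diagonal marks equal differences. The 107 probes called higher and the 30 called lower lie away from the origin in both orientations, and 93 of the 107 rises lie above the diagonal.

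The general stress response held the largest group of rises. The genes on this list are targets of the zinc finger activators Msn2 and Msn4 and encode chaperones, antioxidant enzymes and carbohydrate enzymes. Of 40 members, 26 were called higher and 0 lower, against 1.68% of all probes called higher. The median difference of the list was 1.34, against -0.0023 over all probes. Of the 26 risen members, 14 stood below the reference in 1:594 and 25 stood above it in the double mutant. Centring on the median left 12 of the 40 called, and without array a of 1:594 there were 16.

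YGP1, a secreted glycoprotein made when growth stops, rose most among them. It stood at 0.81 and 1.38 in 1:594 cdk8-del and at -2.27 and -1.94 in 1:594, a difference of 3.20 ± 0.19 (9.18-fold, limma adjusted p = 9.61e-06). YRO2, a membrane protein related to Hsp30, stood at -0.0023 and 0.71 in the double mutant and at -2.86 and -2.76 in 1:594 (difference 3.16 ± 0.22, limma adjusted p = 1.79e-05). Both genes were thus low in 1:594 and near or above the reference without CDK8. RTC3 stood at 1.41 and 2.04 against -1.21 and -0.94, a difference of 2.80 ± 0.22 (limma adjusted p = 3.69e-05). In 1:713, the longest truncation of the series, with CDK8 intact, mean levels of these 3 genes were -0.14 for YGP1, -0.31 for YRO2 and -0.18 for RTC3.

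CTT1, the cytosolic catalase that breaks down hydrogen peroxide, behaved differently in level: it was near the reference in 1:594, at 0.29 and 0.36, and stood at 2.46 and 3.16 in the double mutant. The difference was 2.48 ± 0.19 (5.59-fold, limma adjusted p = 3e-05). The aldehyde dehydrogenase gene ALD3 showed the same kind of levels, at 2.17 and 2.60 against 0.36 and 0.40 (2.01 ± 0.14, limma adjusted p = 1.79e-05). So these genes were not low before CDK8 was removed. The membrane-associated small heat shock protein gene HSP12 stood at 2.53 and 3.50 against 1.06 and 1.02 (1.97 ± 0.27, limma adjusted p = 0.00111). HSP26, a small heat shock chaperone, stood at 2.59 and 3.39 against 0.71 and 1.45 (1.92 ± 0.26, limma adjusted p = 0.00104). For both heat shock genes array b stood above array a in the double mutant.

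SIP18, a desiccation protein (1.91 ± 0.13), SPI1, a cell wall protein (1.88 ± 0.26), and HOR7, a small hyperosmolarity-responsive protein (2.22 ± 0.29), rose as well, and HOR7 was saturated on 1 of the 4 arrays. HOR7, HSP12, HSP26 and SPI1 lost their calls without array a of 1:594 (limma adjusted p from 0.0107 for HSP26 to 0.0164 for SPI1), and HSP12 also without array b of 1:594 (0.0116). Not every member passed the test. HSP30 had a difference of 2.02 ± 0.41 (limma adjusted p = 0.0111) and was called with the replicate block, and SSA3 and the polyubiquitin gene UBI4 had differences of -0.02 and -0.05. MSN4, which encodes one of the 2 activators and was picked out after its values were seen, rose from -0.16 and -0.02 in 1:594 to 1.04 and 1.39 in the double mutant, by 1.31 ± 0.11.

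**Figure D2:**
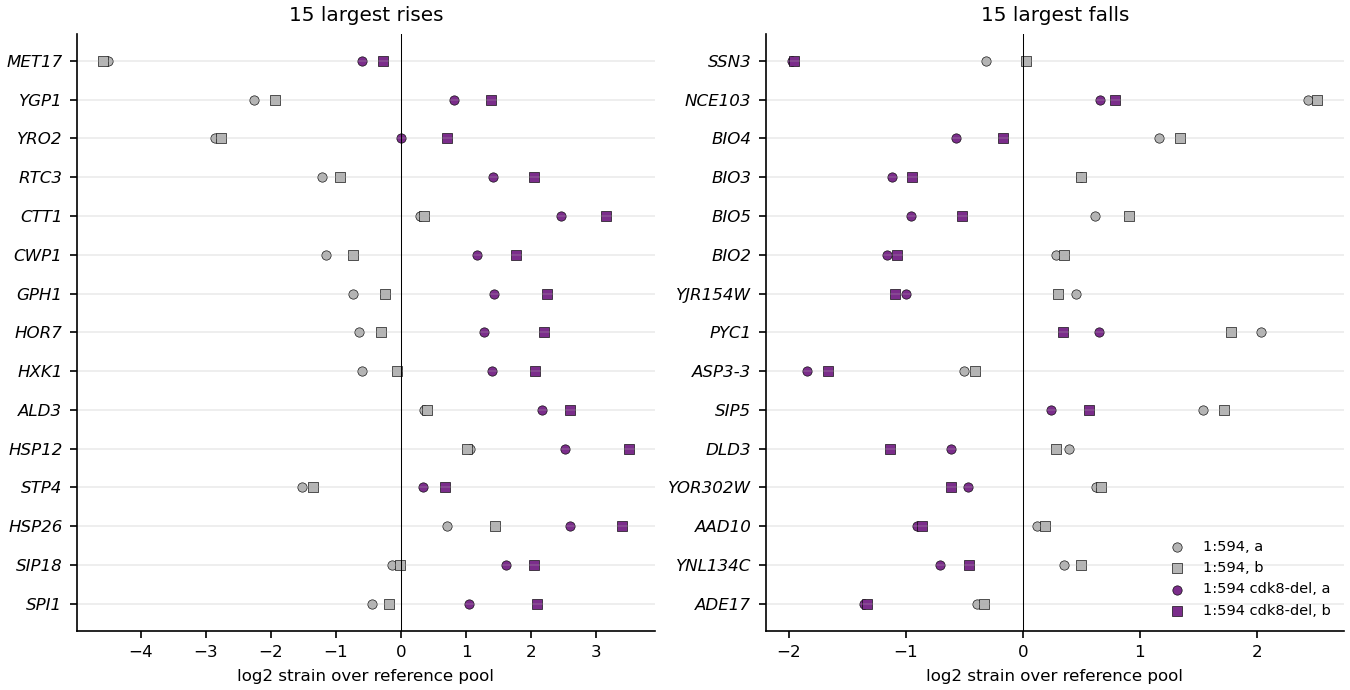
The level on each of the 4 arrays (log2 strain over reference, x axis) is shown for the 15 named genes with the largest rises (left) and the 15 with the largest falls (right); circles are array a, squares array b, grey is 1:594 and purple 1:594 cdk8-del. The genes were chosen among called probes with both purple symbols on 1 side of both grey ones, so this separation is a result of the choice.

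Reserve carbohydrate genes rose too. Of 20 genes for trehalose and glycogen, 7 were called higher and 0 lower, against 1.68% of all probes called higher. The median difference was 0.61, and all 7 stood above the reference in the double mutant. GPH1, glycogen phosphorylase, which releases glucose from glycogen, stood at 1.44 and 2.25 against -0.75 and -0.25 (2.34 ± 0.24, 5.05-fold, limma adjusted p = 0.000164). PGM2, the major phosphoglucomutase, rose by 1.78 ± 0.29, and TSL1, a subunit of the trehalose synthase complex, by 1.39 ± 0.16. Genes for both synthesis and breakdown were among the 7: the glycogen synthase gene GSY1 rose by 1.08 ± 0.14. The difference of GSY2, the other glycogen synthase gene, was 0.89 ± 0.26, which was not called, but was with the replicate block. Without array a of 1:594, array b of 1:594 or array b of the double mutant, 3 of the 20 were called in each case, and with median centring 2. PGM2 was among the calls lost without each of those 3 arrays (limma adjusted p 0.0389, 0.0189 and 0.0393).

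Among hexose transporters and hexokinases, 4 of 22 were called higher, against 1.68% of all probes. HXK1, the hexokinase made when glucose is scarce, stood at 1.39 and 2.06 against -0.60 and -0.06 (2.06 ± 0.28, 4.17-fold, limma adjusted p = 0.00104). HXK2, the hexokinase of glucose-grown cells, had a difference of -0.54 ± 0.13 and was not called. Transporter calls were of mixed affinity: HXT6, a high-affinity transporter, rose by 1.53 ± 0.26 and HXT1, a low-affinity one, by 0.95 ± 0.08. HXT6 is nearly identical to HXT7, as HXT9 (0.88 ± 0.08) is to HXT11 (0.96 ± 0.08), so these signals may be shared between copies. With median centring 0 of the 22 were called, and without array a of 1:594 or array b of the double mutant 2 were. HXK1 lost its call in both cases (differences of 1.79 and 1.72), and HXT6 in both and without array b of 1:594 (1.35, 1.18 and 1.71). ADH2, the alcohol dehydrogenase that consumes ethanol, rose by 0.97 ± 0.09 and was the only 1 of 26 glucose-repressed gluconeogenic and sucrose genes called.

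The respiratory chain and ATP synthase list moved by less per gene. Of 35 members, 9 were called higher and 0 lower, against 1.68% of all probes called higher, with a median difference of 0.62. On 30 of the 35, both double mutant arrays lay above both 1:594 arrays, against 20.8% of all probes. CYC7, the cytochrome c isoform made under stress and low oxygen, which is also on the stress and oxygen lists, stood at 1.36 and 1.86 against -0.04 and 0.06 (1.60 ± 0.16, limma adjusted p = 0.000127). QCR10 and QCR7, subunits of the cytochrome bc1 complex, rose by 0.98 ± 0.14 and 0.97 ± 0.14. Only 1 of the 9 had stood below the reference in 1:594, whereas 14 of the 26 stress genes had. The count depended on the setting: 1 member was called with median centring, 1 without array b of the double mutant and 2 without array a of 1:594, but 12 without array a of the double mutant, 13 with scaling on the external controls, 12 with the deposited ratios and 14 under the replicate block. QCR10 and QCR7 were among the calls lost without array a of 1:594 and without array b of the double mutant (differences of 0.75 to 0.90). HAP4, the activating subunit of the factor that drives respiratory genes, was picked out after its values were seen and rose by 0.86 ± 0.16. No gene of the TCA cycle list was called (0 of 17, median difference 0.33).

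**Figure D3:**
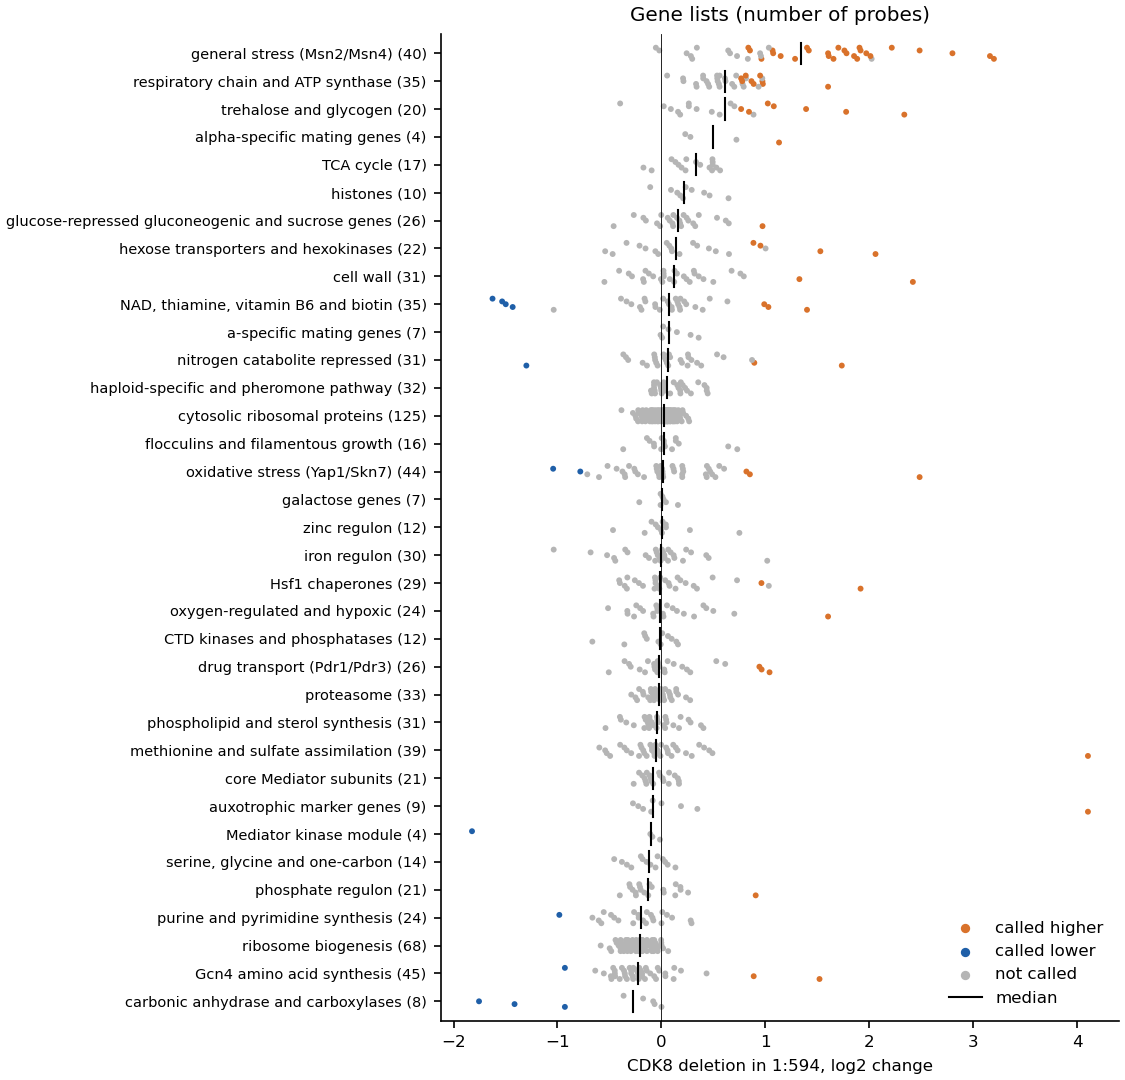
Every member of the 35 gene lists is a point at its log2 difference between 1:594 cdk8-del and 1:594 (x axis), with lists ordered by their median (black bar) and the number of probes in brackets. The general stress list has the highest median, 1.34, and the carbonic anhydrase and carboxylase list the lowest.

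Several lists held only a few called members, beside 1.68% of all probes called higher and 0.47% called lower. Such small counts are given for the genes and are not read as results about the lists. Of 44 oxidative stress genes controlled by Yap1 and Skn7, 3 rose and 2 fell, with a median difference of 0.01: CTT1, the mitochondrial superoxide dismutase gene SOD2 (0.85 ± 0.10) and the peroxiredoxin gene TSA2 (0.82 ± 0.12) rose, and the aryl-alcohol dehydrogenase genes AAD10 (-1.04 ± 0.09) and AAD15 (-0.78 ± 0.09) fell. AAD genes are near-identical copies of one another, so their signals may be shared. In the cell wall list 2 of 31 rose. CWP1, a mannoprotein of the wall, stood at 1.17 and 1.77 against -1.16 and -0.73 (2.42 ± 0.25, limma adjusted p = 0.000151), and GSC2, a glucan synthase subunit, rose by 1.33 ± 0.09. The Hsf1 chaperone list had 2 of 29 called, HSP26 and the Hsp70 gene SSA4 (0.96 ± 0.10), with a median difference of -0.01.

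Of 31 genes under nitrogen catabolite repression, 2 rose and 1 fell, against 1.68% of all probes called higher and 0.47% called lower. PUT4, a proline permease, stood at 1.50 and 1.97 in the double mutant and was not above background on either 1:594 array, so its level there has only a bound (measured difference 1.74 ± 0.15, limma adjusted p = 4.84e-05). GAP1, the general amino acid permease, rose by 0.89 ± 0.15. The GAP1 call was lost with plain background subtraction, with lowess fitted grid by grid and with median centring. It was also lost without 3 of the 4 arrays. The difference was 0.85 without array a of 1:594, 0.94 without array b of 1:594 and 0.74 without array b of the double mutant. The gene that fell, ASP3-3, is described with the differences between truncations. The drug transport list had 3 of 26 called, namely the polyamine exporter genes TPO3 (1.04 ± 0.09) and TPO4 (0.94 ± 0.11) and HXT11. PHM8, a phosphatase of the phosphate regulon, rose by 0.91 ± 0.15 and was the only 1 of 21 probes of its list to be called. PHM8 lost the call with median centring and without 3 of the 4 arrays (limma adjusted p 0.0389 without array a of 1:594, 0.0243 without array b of 1:594 and 0.0436 without array b of the double mutant).

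Of 45 genes of amino acid synthesis under Gcn4, 2 rose and 1 fell, against 1.68% of all probes called higher and 0.47% called lower. All of these were on the path to arginine, while the list's median difference was -0.22. ARG3, ornithine carbamoyltransferase, stood at 0.86 and 0.75 against -0.71 and -0.73 (1.52 ± 0.08, limma adjusted p = 9e-06), and ARG8, acetylornithine aminotransferase, rose by 0.89 ± 0.12. CPA1, the small subunit of carbamoyl phosphate synthetase, fell by 0.93 on the log2 scale, from 0.52 and 0.64 to -0.38 and -0.32. The neighbouring YOR302W, the short reading frame in the CPA1 leader, fell by 1.19 on that scale, and the 2 probes may read the same transcript. On 29 of the 45 genes both double mutant arrays lay below both 1:594 arrays, against 20.4% of all probes.

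STP4, a zinc finger protein related to regulators of amino acid uptake, stood at 0.34 and 0.68 in the double mutant and at -1.53 and -1.35 in 1:594 (1.95 ± 0.12, limma adjusted p = 9.61e-06). GPD1, which makes the glycerol used against osmotic stress, was picked out after its values were seen. It stood at 0.17 and -0.11 against -1.38 and -1.62, a rise of 1.53 ± 0.18, and GPP1, the next enzyme of that path, rose by 0.93 ± 0.10.

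Among the 30 falls were 4 biotin genes, 3 genes for enzymes that make or use bicarbonate, and ASP3-3, YLR161W and 5 unnamed probes that are described with the differences between truncations. Biotin is the cofactor of the carboxylases. In the list of NAD, thiamine, vitamin B6 and biotin genes, 4 of 35 probes fell, all of them biotin genes, against 0.47% of all probes called lower. BIO4, dethiobiotin synthetase, stood at -0.57 and -0.17 in the double mutant and at 1.17 and 1.35 in 1:594 (-1.62 ± 0.20, limma adjusted p = 0.00053). BIO3, the aminotransferase that precedes it, fell by 1.53 ± 0.15 on the log2 scale, BIO5, a transporter of biotin precursors, by 1.50 ± 0.24, and BIO2, biotin synthase, by 1.43 ± 0.14. All 4 stood above the reference in 1:594 and below it in the double mutant. They also stood above it in 1:713, with means of 0.67 for BIO4, 0.63 for BIO3, 0.78 for BIO5 and 0.40 for BIO2. With median centring none of the 4 biotin genes was called, and BIO5 lost its call without 3 of the 4 arrays (limma adjusted p 0.0156 without array a of 1:594, 0.0375 without array b of 1:594 and 0.0274 without array a of the double mutant). BIO3, BIO4 and BIO5 lie next to one another in the genome. The biotin transporter gene VHT1 differed by -1.04 ± 0.24 and was not called (limma adjusted p = 0.0208), but it was called lower with the replicate block. The 3 members of the same list that rose were PNC1, a nicotinamidase of the stress response (1.40 ± 0.12), THI4, of thiamine synthesis (1.03 ± 0.19), and BNA1, of NAD synthesis (0.99 ± 0.12).

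Of 8 genes for carbonic anhydrase and carboxylases, 3 fell and 0 rose, against 0.47% of all probes called lower. NCE103, the carbonic anhydrase that supplies bicarbonate to the carboxylases, stood at 0.66 and 0.79 in the double mutant and at 2.44 and 2.52 in 1:594 (-1.75 ± 0.15, 3.37-fold lower, limma adjusted p = 6.3e-05). PYC1, a biotin-dependent pyruvate carboxylase, stood at 0.65 and 0.35 against 2.04 and 1.78 (-1.41 ± 0.15, limma adjusted p = 0.000197). Both remained above the reference in the double mutant. In 1:713 the mean level was 1.66 for NCE103 and 1.32 for PYC1. The third was CPA1, which takes up bicarbonate. PYC2, the other pyruvate carboxylase gene, differed by -0.08 ± 0.10.

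Other named falls were DLD3, a D-lactate dehydrogenase (-1.21 ± 0.15), SIP5, a protein linked to the Snf1 kinase (-1.23 ± 0.24), YNL134C (-1.01 ± 0.12) and ADE17, of purine synthesis (-0.98 ± 0.12). YJR154W fell by 1.42 ± 0.10 on the log2 scale and lies next to AAD10. SIP5 kept its call only narrowly (limma adjusted p = 0.00947). It lost the call with plain or no background subtraction, with median centring and without any 1 of the 4 arrays. ADE17 was the only 1 of 24 purine and pyrimidine genes called, against 0.47% of all probes called lower. The median of that list was -0.20. On 16 of the 24 both double mutant arrays lay below both 1:594 arrays, against 20.4% of all probes.

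Growth-related genes were not called in either direction. None of 68 ribosome biogenesis genes passed the test, although their median difference was -0.21 and 36 of the 68 had both double mutant arrays below both 1:594 arrays, against 20.4% of all probes. In limma 23 of the 68 had an unadjusted p under 0.05, all of them lower, beside 1367 of the 6388 probes in either direction. None of 125 probes for cytosolic ribosomal proteins was called (median difference 0.03). In all, 15 of the 35 lists held no called member, among them core Mediator subunits, CTD kinases and phosphatases, the iron and zinc regulons, galactose genes, histones and the proteasome. The differences of the iron regulon members ranged from -1.04 to 1.02, and with the replicate block 1 was called higher and 1 lower.

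The alpha pheromone gene MF(ALPHA)2 stood far below the reference in both strains, at -2.94 and -2.82 in 1:594 cdk8-del and at -4.23 and -3.78 in 1:594. It was called higher by 1.13 ± 0.21 (limma adjusted p = 0.00712) but lost the call without any 1 of the 4 arrays. It was 1 of 4 alpha-specific mating genes, whose median difference was 0.50, and no a-specific gene was called. The mean level of MF(ALPHA)2 was -4.23 in 1:609, -1.09 in 1:666 and -0.25 in 1:713, so it also separates these strains.

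The same deletion was also profiled in the truncations 1:609 and 1:666, each with and without CDK8 on 2 arrays a strain, and those strains share no array with the ones above. In 1:609 limma called 87 probes higher and 17 lower (1.36% and 0.266%, or 1.63% of probes in all), and in 1:666 it called 211 higher (3.3%) and 44 lower (0.689%), or 3.99% in all. Of the 107 rises in 1:594, 77 were also called higher in 1:609, which is 72.0% of the 1:594 list and 88.5% of the 1:609 list. In 1:666, 99 were, which is 92.5% of the 1:594 list and 46.9% of the 1:666 list. Of the 30 falls, 16 were called lower in 1:609 and 18 in 1:666. In all 3 truncations 75 rises and 14 falls were called, and none of the 137 was called in the opposite direction in either of the others.

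YGP1 rose by 3.61 ± 0.19 in 1:609 and by 3.81 ± 0.19 in 1:666, beside 3.20 ± 0.19 in 1:594. CTT1 rose by 2.46 ± 0.19 in 1:609 and by 3.89 ± 0.19 in 1:666, beside 2.48 ± 0.19. NCE103 fell by 2.12 ± 0.15 and 2.13 ± 0.15 on the log2 scale, beside 1.75 ± 0.15. For the general stress list the number of members called higher was 25 in 1:609 and 36 in 1:666, against 26 in 1:594, and the medians were 1.36, 2.15 and 1.34. Of the 26 stress genes called in 1:594, 24 were called in 1:609 and all 26 in 1:666.

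Whether the difference between strains with and without CDK8 itself changed with the truncation was tested probe by probe. The difference in 1:594 minus that in 1:666 was called for 10 probes (0.157%), 1 higher (0.0157%) and 9 lower (0.141%). Of the 9, only ALD3 and TPS2 rose in 1:594. The rest were ASP3-3, YLR161W and probes without a gene symbol, which were lower in 1:594 cdk8-del than in 1:594 and are described below. ALD3 rose less in 1:594 than in 1:666, by a difference of -1.64 ± 0.20 (limma adjusted p = 0.00546), and so did TPS2, trehalose-6-phosphate phosphatase, at 0.77 ± 0.09 against 2.07 ± 0.09 (difference -1.30 ± 0.13, limma adjusted p = 0.00144). With the replicate letter as a block limma called 48 probes, 3 higher (0.047%) and 45 lower (0.704%), and 14 of the 45 were members of the general stress list. Those 14 included CTT1, HSP12, HSP26 and SPI1. With CDK8 intact, HSP26 had a mean of 1.08 in 1:594 and -0.73 in 1:666, and HSP12 of 1.04 and -0.09. In the double mutants the means were 2.99 and 3.58 for HSP26 and 3.01 and 3.86 for HSP12. CTT1 and SPI1 likewise stood higher in 1:594 than in 1:666 with CDK8 intact, and lower without it. The median of the difference between the effects in 1:594 and 1:666 was -0.69 over the 40 stress genes. It was -0.55 over the trehalose and glycogen list. Among the 26 stress genes called in 1:594, 25 had a larger rise in 1:666. The stress genes were not alone in this, since 1:666 had 211 probes called higher against 107 in 1:594. A larger rise in 1:666 was also seen for 8 of the 9 respiratory genes and all 7 reserve carbohydrate genes called higher. It was seen for 1 of the 3 such genes on the list of NAD, thiamine, vitamin B6 and biotin.

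YHB1, a flavohemoglobin that detoxifies nitric oxide, gave the 1 higher call. It was equally low with and without CDK8 in 1:594, at -2.22 and -2.28 against -2.46 and -2.28, and had a difference of 0.12 ± 0.10. In 1:666 it fell by 1.02 on the log2 scale when CDK8 was absent, and the effects differed by 1.14 ± 0.15 (limma adjusted p = 0.00643).

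Against 1:609 the difference in 1:594 was called for 8 probes (0.125%), 1 higher (0.0157%) and 7 lower (0.11%). A fit blocked on the replicate letter gave 13, with 2 higher (0.0313%) and 11 lower (0.172%). Median centring gave 3 calls, 1 higher and 2 lower, and scaling on the external control RNA moved the median of all probes to -0.31 in this difference and to -0.32 in that against 1:666. The higher one was MET17, with a difference of 3.83 ± 0.21 (limma adjusted p = 1.66e-05). MET17 stood at -4.74 and -4.54 in 1:609 cdk8-del and at -0.17 and 0.06 in 1:666 cdk8-del, so the level near the reference was a property of the 1:594 and 1:666 double mutants. Without the block, ALD3 and TPS2 were the only members of the stress, respiratory and reserve carbohydrate lists called in either difference.

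The 7 lower probes included ASP3-3, an asparaginase gene, and YLR161W, and the other 5 have no gene symbol here. ASP3-3 stood at -1.84 and -1.67 in 1:594 cdk8-del and at -0.50 and -0.41 in 1:594, a fall of 1.30 ± 0.09 on the log2 scale (limma adjusted p = 1.79e-05), beside differences of 0.14 ± 0.09 in 1:609 and 0.03 ± 0.09 in 1:666. The strain that stood apart was 1:594: on the 14 arrays of the other strains ASP3-3 lay between -1.91 and -1.47. YLR161W gave the same picture, at -0.67 and -0.66 in the double mutant and at 0.26 and 0.15 in 1:594, and lay between -0.81 and -0.41 on the other arrays. ASP3-3 is 1 of 4 near-identical ASP3 copies, and YLR161W lies beside them in a repeated region, so the probes may read several copies at once.

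**Figure D4:**
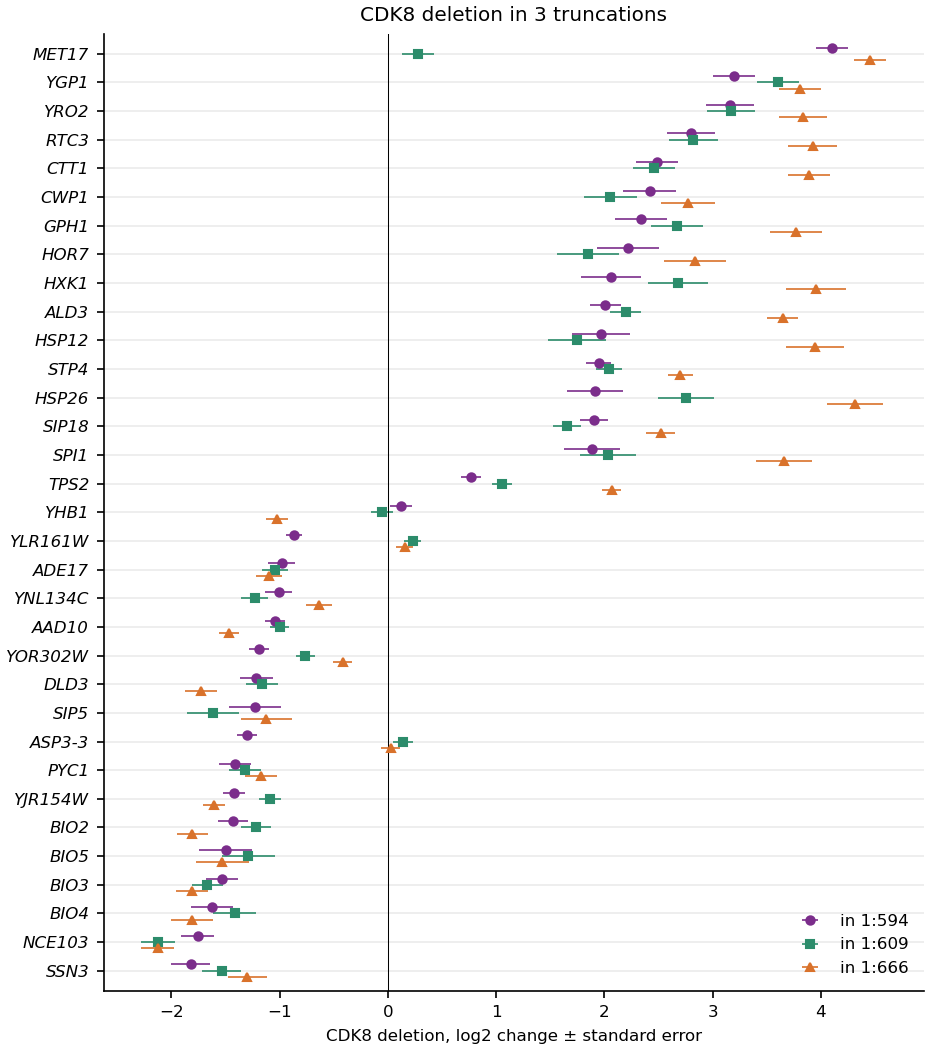
The log2 difference between strains with and without CDK8 (x axis, points with bars of 1 standard error) is shown in 1:594 (purple circles), 1:609 (green squares) and 1:666 (orange triangles). The genes are the 15 largest rises and falls in 1:594 and those whose difference was called between truncations. MET17 is near 0 in 1:609 only, and ASP3-3 and YLR161W are below 0 in 1:594 only.

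**Figure D5:**
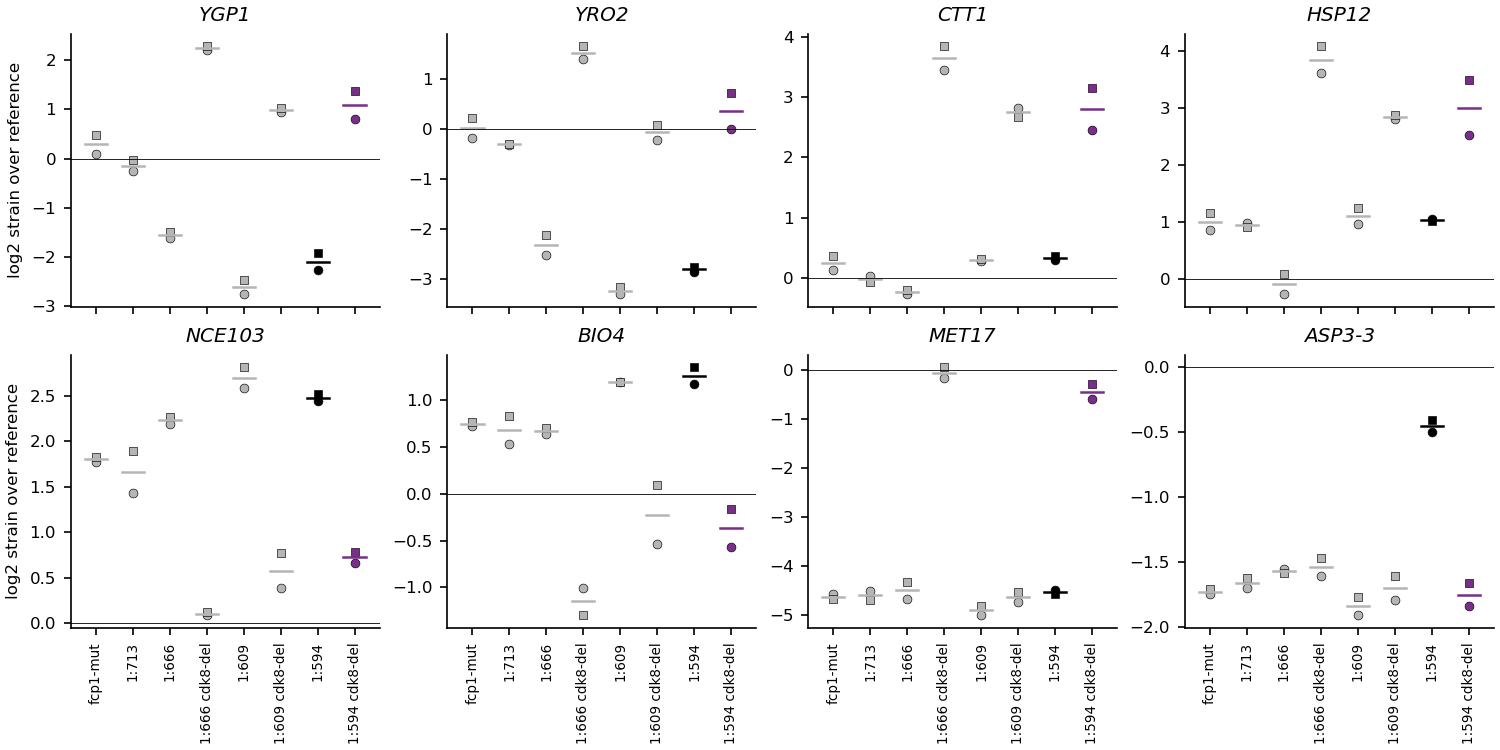
Levels of 8 genes (log2 strain over reference, y axis) are shown in all 8 strains, with circles for array a, squares for array b and a line at the mean; 1:594 is black and 1:594 cdk8-del purple. ASP3-3 is higher in 1:594, at -0.50 and -0.41, than in every other strain.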

How the data were processed

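RNA of 8 yeast strains was hybridised against a reference pool on 16 spotted arrays of 2 colours. The authors deposited scanner files that hold the spot intensity and local background of each dye. They also deposited a table of log2 ratios with no stated scale or direction, which matched strain over reference on all 16 arrays (r from 0.621 to 0.977 with the values computed here). How the table was made from the scanner files is not stated in what was used here. From the intensities, background was corrected by normexp (offset 50), lowess (span 0.4, 3 iterations) was fitted over the 12776 gene spots of each array, and the 2 spots of each of 6388 probes were averaged. Probes were named from the platform table, with symbols updated from RefSeq (R64), and 1062 have no single symbol. Between 96.4 and 98.8% of probes per array lay above background by 3 SD, and the number of arrays limits the precision.

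limma 3.58.1 in R 4.3.3 was fitted to all 16 arrays with 1 mean per strain (8 residual degrees of freedom), two-sided, with Benjamini-Hochberg adjustment over all probes and the study's thresholds (adjusted p under 0.01 and fold above 1.7). It was tested on simulated data. The replicate letter marks the dye orientation in the labels. Differences between arrays a and b correlated at 0.861 between the strains compared, and from 0.599 to 0.914 over the 28 pairs of strains. As the letter is also the dye orientation, these correlations cannot tell a pairing by culture or batch from a dye effect. A fit with the letter as a block was also made. Named genes are the 15 largest rises and 15 largest falls, up to 3 called members of each of 35 lists, up to 5 of the largest called in each of the 2 differences between truncations, and 8 fixed genes (FCP1, SSN3, SSN8, SRB8, SSN2, MET17, LYS2, MF(ALPHA)2). The comparison and the lists, with 40 of 988 entries lacking a probe, were chosen with earlier results of these data known. Alternatives were other background corrections and normalizations, the deposited ratios, a filter on dim probes, fewer arrays and each array left out. The other strains were used for the spread and where named.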

Additional observations from a re-analysis of the deposited data

Results flagged for a closer look

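The difference between strains with and without CDK8 was not the same in each truncation, by limma's own test, for the following probes. With 1 strain for each genotype, an effect of CDK8 that depends on the truncation and a trait of a single strain cannot be told apart. Between 1:594 and 1:609 the difference was 3.83 for MET17, -1.44 for ASP3-3 and -1.10 for YLR161W. For 5 probes with no gene symbol it was -1.43, -1.37, -1.27, -1.002 and -0.95, and these probes stood higher in 1:594 than in 1:594 cdk8-del, as ASP3-3 did. Between 1:594 and 1:666 it was -1.64 for ALD3, -1.33 for ASP3-3, -1.30 for TPS2, 1.14 for YHB1 and -1.02 for YLR161W. The same 5 probes without a symbol gave -1.33, -1.29, -1.01, -0.91 and -0.85 there. The MET17 difference was called under all alternatives tried, whereas that of YHB1 was lost in 11 of 18 and that of ALD3 in 9 of 18.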

How the results depend on the processing

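With 2 arrays a side, small changes and single arrays limit the calls. Of the 53 named genes called, 0 changed direction under any alternative. The 137 calls became 41 with median centring, which kept 39 of them, and 0 with only the 4 arrays of the strains compared (864 probes at an unadjusted p under 0.05). They ranged from 80 to 147 when an array was left out, where the lone array is assumed to vary like the other strains. The replicate block gave 180 and kept all 137, and with the 4 arrays and the block, added after seeing the data, there were 192. Plain background subtraction gave 171, no subtraction 132, external control scaling 149 and the deposited ratios 182.

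The 8 differences from 1:609 became 3 with median centring, 5 with external control scaling, 13 with the replicate block, 1 with only the arrays of the strains compared and 59 when the block was added to those, and ranged from 5 to 9 without 1 array. The 10 differences from 1:666 became 6 with no background subtraction, 0 with median centring (162 at an unadjusted p under 0.05), 51 with the deposited ratios, 48 with the replicate block, 0 with only the arrays of the strains compared (400 at an unadjusted p under 0.05) and 20 when the block was added to those. They ranged from 0 to 26 without 1 array: 0 without array b of 1:666 and 26 without array b of 1:594 cdk8-del. Between 1:594 cdk8-del and 1:594 the block changed no call of a gene named by the rule, while VHT1, HSP30 and GSY2, also named in the text, gained theirs. The cause of these shifts was not tested.

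Median centring lost 36 of the 53 named calls and kept 17: MET17, YGP1, YRO2, RTC3, CTT1, GPH1, ALD3, STP4, ARG3, CYC7, SSA4, GSC2, TPO4, NCE103, YJR154W, PYC1 and ASP3-3. Leaving out an array lost from 4 to 14 of the 53.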

Other observations

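Of the named probes called, 37 rises and 10 falls belonged to none of the lists, and the genes below were picked out after their values were seen. Regulators of the mitochondrial ATP synthase rose: INH1, which inhibits the enzyme when it runs in reverse, by 1.43 ± 0.12, STF2 by 1.37 ± 0.14 and STF1 by 0.94 ± 0.15. INH1 stood at 1.24 and 1.54 in 1:594 cdk8-del and at -0.09 and near 0 in 1:594. Other mitochondrial genes that rose were FMP48 (1.76 ± 0.17), the copper and phosphate carrier gene PIC2 (1.55 ± 0.19), MCR1, a cytochrome b5 reductase (0.85 ± 0.12), and RGI1, tied to respiratory growth (1.69 ± 0.30). The glutamate decarboxylase gene GAD1 rose by 1.45 ± 0.22, and the glycolytic aldolase gene FBA1 by 0.99 ± 0.14. Of these, limma also called INH1, STF1, STF2, FMP48, PIC2 and GAD1 higher in 1:609.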
